A study of Mus musculus with 3 samples.

Results

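The 9 genes described here encode secreted metalloproteinases of the ADAMTS family that cut proteoglycans or procollagens. They were taken from the deposited table by gene symbol, without use of their values, and are 9 of its 26970 genes. Adamts1, Adamts4, Adamts5, Adamts9 and Adamts15 form a proteoglycan-cleaving group, called the aggrecanase group below. Adamts2, Adamts3 and Adamts14 encode the procollagen N-proteinases. Adamts12 encodes a proteinase that cleaves cartilage oligomeric matrix protein (COMP). In single libraries of the mandibular condyle, 8 of the 9 genes were at lower levels in Dspp+/- and in Dspp-/- than in WT. Over all genes averaging 1 FPKM or more, 43.7% were lower in Dspp+/- and 49.3% in Dspp-/-. For Adamts5 in Dspp+/-, the direction turned under another scaling of the libraries. Adamts1 was at higher levels in both mutant libraries. Adamts2, the most abundant of the 9 genes, was 36.5 FPKM in WT against 14.7 in Dspp+/- and 22.3 in Dspp-/-.

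Mandibular condyles of mice aged 4 months were profiled by RNA sequencing, and each of 3 genotypes gave 1 library. WT mice carried both intact Dspp alleles, Dspp+/- mice 1 intact allele, and Dspp-/- mice were homozygous for a global Dspp knockout in the C57BL/6 background. Per the study's methods, tissue of 3 animals was pooled for WT and for Dspp+/-, the number of animals behind Dspp-/- is not stated there, and Dspp-/- mice also have severe tooth defects. Condylar cartilage and subchondral bone were dissected as 1 piece, so fewer cells of a type and less RNA per cell cannot be told apart. Because each genotype is represented by a single library, nothing could be tested between genotypes, and every difference below is one between single libraries. Values are FPKM, which is fragments divided by exon length and by the depth of the library. Their 95% intervals come from the fragments behind them and cover counting error only. The recovered depth was 20241576 fragments for WT, 23613622 for Dspp+/- and 22253159 for Dspp-/-. The share of mitochondrially encoded genes in the summed FPKM was 25% for WT, 36.9% for Dspp+/- and 37.3% for Dspp-/-. As Dspp was not analysed here, its level gives no check of the genotype labels. Xist, the RNA of the inactive X chromosome of female cells, had 2 fragments in WT against 12084 in Dspp+/- and 10563 in Dspp-/-, while 4 Y-linked genes summed to 36.6, 19 and 25.9 FPKM. The sex of the pooled animals and the genotype therefore cannot be told apart.

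ADAMTS proteinases are made as inactive precursors, cut by furin-like convertases, and held in the matrix through thrombospondin repeats. Aggrecanases cut the core protein of aggrecan, the proteoglycan that lets cartilage bear load, and ADAMTS5 is the main aggrecanase of mouse joint cartilage. Procollagen N-proteinases remove the amino-terminal propeptide of fibrillar procollagens, which lets the collagen form regular fibrils in bone, tendon, skin and cartilage.

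The promoter sequences of 4 members are shown, because the 3 procollagen N-proteinase genes were lower together in both mutant libraries and Adamts1 was the 1 member that was higher. This choice used the expression values, and Adamts4, Adamts9, Adamts12 and Adamts15 were also lower in both mutant libraries. A link of promoter letters to direction was not tested. Each sequence is the run of 250 bases before the transcription start in RefSeq on GRCm38.p6, written 5′ to 3′ on the strand of the gene. They lie at chr16:85803114-85803363 on the minus strand (Adamts1), chr11:50601835-50602084 on the plus strand (Adamts2), chr5:89883335-89883584 on the minus strand (Adamts3) and chr10:61273420-61273669 on the minus strand (Adamts14). Capitals mark the TATA box, searched as TATAAA, and the GC box. The letters searched for the GC box were GGGCGG, and its complement is in capitals where the match is on the other strand.
Adamts1: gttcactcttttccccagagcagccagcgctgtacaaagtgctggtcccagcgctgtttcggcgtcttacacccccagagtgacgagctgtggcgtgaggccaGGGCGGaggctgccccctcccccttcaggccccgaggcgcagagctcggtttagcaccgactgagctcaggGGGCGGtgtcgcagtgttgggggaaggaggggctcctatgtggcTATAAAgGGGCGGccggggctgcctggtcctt
Adamts2: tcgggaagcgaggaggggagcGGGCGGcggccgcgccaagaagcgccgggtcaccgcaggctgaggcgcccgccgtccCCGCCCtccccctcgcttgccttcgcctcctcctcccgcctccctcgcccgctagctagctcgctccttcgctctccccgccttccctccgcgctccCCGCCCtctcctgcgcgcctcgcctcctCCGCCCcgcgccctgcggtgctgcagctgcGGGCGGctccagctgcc
Adamts3: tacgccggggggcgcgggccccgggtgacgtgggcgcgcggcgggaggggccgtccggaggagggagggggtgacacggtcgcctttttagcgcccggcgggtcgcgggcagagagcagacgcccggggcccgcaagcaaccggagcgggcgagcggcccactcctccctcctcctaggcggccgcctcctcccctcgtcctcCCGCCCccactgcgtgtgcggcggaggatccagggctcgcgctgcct
Adamts14: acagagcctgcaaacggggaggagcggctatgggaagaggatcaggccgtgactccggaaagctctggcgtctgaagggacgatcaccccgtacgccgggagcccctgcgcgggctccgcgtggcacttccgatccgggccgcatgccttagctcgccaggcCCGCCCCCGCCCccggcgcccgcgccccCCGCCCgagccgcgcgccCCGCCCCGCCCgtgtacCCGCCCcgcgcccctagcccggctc
These 4 windows had a GC content of 65.6% (Adamts1), 78% (Adamts2 and Adamts3) and 76.4% (Adamts14), against a median of 52.4% over all 32851 promoters of the same table. The number of CpG dinucleotides was 15, 34, 35 and 35 in the same order, against a median of 6. Adamts1 alone of the 4 held a TATA box, 32 bases before the start, which 12.4% of all promoters hold in this window on either strand. It also held 3 GC boxes, while Adamts2 held 5, Adamts3 held 1 and Adamts14 held 6, some of them overlapping. A GC box was in 32.7% of all promoters. Of the 9 members, 6 were matched in the promoter table, and Adamts4, Adamts5 and Adamts15 were not. Among the matched members, Adamts9 (71.2% GC, 22 CpG) held 1 GC box and Adamts12 (63.2% GC, 6 CpG) held none. The bases that follow the window occurred in a GENCODE M21 transcript for each of the 4 members printed. For Adamts9 and Adamts12 they did not, so the starts of these windows were not matched there. The other motifs were also searched on both strands. CCAAT was held by 33.8% of all promoters, the AP-1 site TGANTCA by 6.75% and the RUNX site, with the letters TGTGGT, by 14%. None of the 6 windows held any of these 3. The cAMP response element core TGACG, held by 17.8% of all promoters, occurred once each in Adamts1, Adamts3, Adamts9 and Adamts12. A match describes the letters of the window and is not evidence of a site in use.

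**Figure D1:**
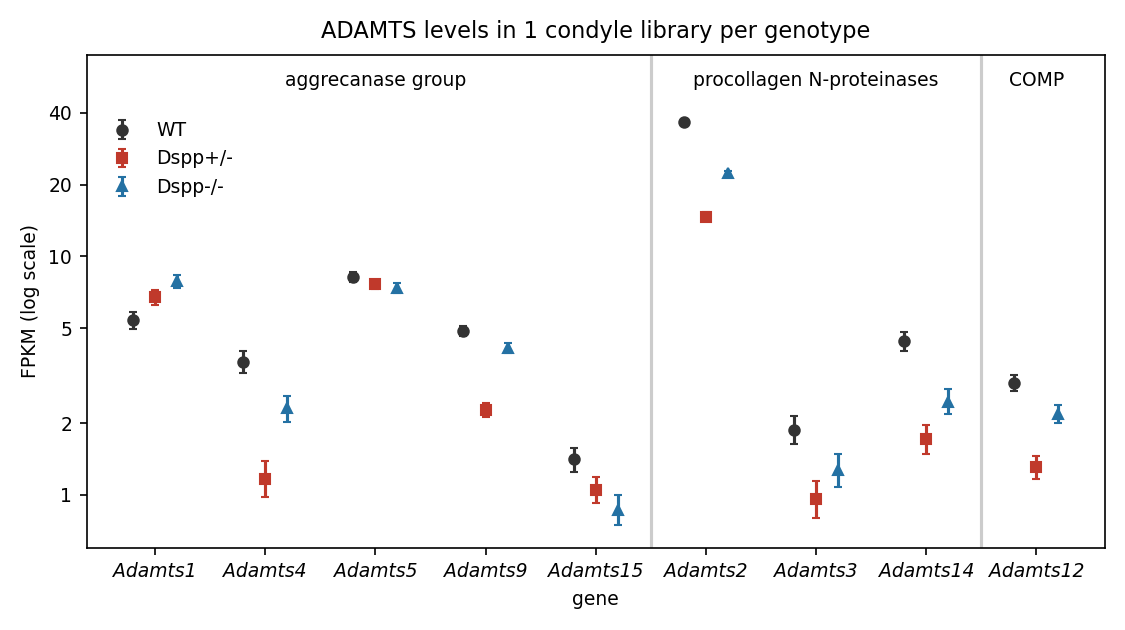
Level of each of the 9 ADAMTS genes in the WT, Dspp+/- and Dspp-/- condyle library, in FPKM on a log scale, with genes grouped by role. Points are single libraries and bars are 95% exact Poisson intervals of the fragments, and Adamts2 stands above all others at 36.5, 14.7 and 22.3 FPKM while Adamts1 is the 1 gene that is lowest in WT.

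In WT the order from high to low was Adamts2, Adamts5, Adamts1, Adamts9, Adamts14, Adamts4, Adamts12, Adamts3 and Adamts15. Adamts2 was 4.46 times Adamts5 in FPKM (interval 4.23 to 4.7), and 96.4% of all genes in the table were below it. Of the neighbours in this order, Adamts9 and Adamts14 had a ratio of 1.11 (0.998 to 1.23), which counting error covers. In Dspp+/-, Adamts2 led Adamts5 by 1.93 times (1.82 to 2.04), and Adamts12, Adamts4, Adamts15 and Adamts3 followed each other at the low end with neighbour intervals that all hold 1. In Dspp-/-, Adamts1 stood at 1.07 times Adamts5 (0.986 to 1.16), so the level of these 2 genes could not be ordered there. The intervals of Adamts14 to Adamts4 (0.897 to 1.27) and Adamts4 to Adamts12 (0.903 to 1.23) also held 1 in Dspp-/-.

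In the aggrecanase group, Adamts4 was lower in both mutant libraries, Adamts9 was lower mainly in Dspp+/-, Adamts5 differed little between libraries and Adamts1 was higher in both. Adamts5 (ENSMUSG00000022894, chr16:85653061-85698716, minus strand) was 8.18 FPKM in WT (7.81 to 8.57), 7.64 in Dspp+/- (7.31 to 7.99) and 7.36 in Dspp-/- (7.02 to 7.71). Dspp+/- stood at 0.934 of WT (0.876 to 0.997) and Dspp-/- at 0.899 of WT (0.842 to 0.961), and the ratio of Dspp-/- to Dspp+/- was 0.963 (0.902 to 1.03), an interval that holds 1. With libraries scaled without mitochondrially encoded genes, its log2 ratio in Dspp+/- turned from -0.09 to 0.02, so no direction is given for Adamts5 in Dspp+/-. All members are read against the table as a whole, whose median log2 ratio of FPKM + 1 was 0.06 in Dspp+/- and 0.01 in Dspp-/-, or 0.16 and 0.10 under that scaling.

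Adamts4 (ENSMUSG00000006403, chr1:171077990-171088206, plus strand), an aggrecanase that inflammatory cytokines induce in chondrocytes, was 3.61 FPKM in WT (3.24 to 4), 1.17 in Dspp+/- (0.98 to 1.39) and 2.31 in Dspp-/- (2.03 to 2.61). The 3 intervals do not overlap, with WT highest and Dspp+/- lowest. Dspp+/- reached 0.325 of WT (0.264 to 0.398) and Dspp-/- 0.64 of WT (0.542 to 0.755), and Dspp-/- was 1.97 times Dspp+/- (1.59 to 2.45). These values rest on 351, 133 and 247 fragments.

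Adamts1 (ENSMUSG00000022893, chr16:85590715-85600001, minus strand), a versican-cleaving member that parathyroid hormone induces in osteoblasts, went the other way. It was 5.4 FPKM in WT (4.97 to 5.86), 6.73 in Dspp+/- (6.28 to 7.2) and 7.87 in Dspp-/- (7.37 to 8.39). Its FPKM was 1.24 times WT (1.12 to 1.39) in Dspp+/-, 1.46 times WT (1.31 to 1.62) in Dspp-/- and 1.17 times higher in Dspp-/- than in Dspp+/- (1.06 to 1.29). Adamts1 and Adamts5 are neighbours on chromosome 16 on the same strand, 53.1 kb apart with no gene of the table between them. Their ratio differed between libraries, with Adamts1 at 0.661 of Adamts5 in WT (0.6 to 0.726), 0.88 in Dspp+/- (0.81 to 0.954) and 1.07 in Dspp-/- (0.986 to 1.16).

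Adamts9 (ENSMUSG00000030022, chr6:92749680-92920473, minus strand), which cleaves versican and aggrecan, was 4.88 FPKM in WT (4.63 to 5.13), 2.28 in Dspp+/- (2.13 to 2.44) and 4.13 in Dspp-/- (3.92 to 4.35). Dspp+/- was the low library, at 0.468 of WT (0.429 to 0.51), whereas Dspp-/- was at 0.847 of WT (0.786 to 0.911). In GENCODE M21, 12% of its exon length overlaps genes on the other strand, and 8.89% of its 100-base sequences occur in other genes. Whether the counting used strand is not given in the sources used here. Adamts15 (ENSMUSG00000033453, chr9:30810451-30833748, minus strand), a further versican-cleaving member, was 1.41 FPKM in WT (1.25 to 1.58), 1.05 in Dspp+/- (0.926 to 1.19) and 0.867 in Dspp-/- (0.751 to 0.996). It was lowest in Dspp-/-, at 0.617 of WT (0.513 to 0.74), and at 0.747 of WT (0.629 to 0.886) in Dspp+/-. Adamts5 and Adamts15 were the members with a lower value in Dspp-/- than in Dspp+/-. For Adamts15 the ratio was 0.826 (0.683 to 0.997), while the interval for Adamts5 (0.902 to 1.03) holds 1.

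All 3 procollagen N-proteinase genes were lower in both mutant libraries, with the lowest level in Dspp+/- each time. Adamts2 (ENSMUSG00000036545, chr11:50492911-50698400, plus strand), the main enzyme for type I procollagen, was 36.5 FPKM in WT (35.6 to 37.3), 14.7 in Dspp+/- (14.2 to 15.3) and 22.3 in Dspp-/- (21.6 to 22.9). With 6892, 3249 and 4624 fragments, it is the member with the most fragments. It was at 0.404 of WT (0.387 to 0.421) in Dspp+/- and at 0.61 of WT (0.588 to 0.634) in Dspp-/-, and Dspp-/- was 1.51 times Dspp+/- (1.44 to 1.58). Adamts14 (ENSMUSG00000059901, chr10:61032891-61109217, minus strand), its close relative, was 4.4 FPKM in WT (4.01 to 4.82), 1.71 in Dspp+/- (1.49 to 1.96) and 2.46 in Dspp-/- (2.19 to 2.77). Its FPKM was 0.389 of WT (0.329 to 0.459) in Dspp+/- and 0.56 of WT (0.481 to 0.65) in Dspp-/-, close to the values of Adamts2. Adamts3 (ENSMUSG00000043635, chr5:89824946-90031193, minus strand), which processes type II procollagen in cartilage and also activates the lymphatic growth factor VEGF-C, was 1.87 FPKM in WT (1.63 to 2.15), 0.959 in Dspp+/- (0.797 to 1.14) and 1.27 in Dspp-/- (1.08 to 1.49). It was at 0.512 of WT (0.406 to 0.643) in Dspp+/- and 0.68 of WT (0.548 to 0.842) in Dspp-/-. The level intervals of the 2 mutant libraries overlap, but Dspp-/- was 1.33 times Dspp+/- (1.04 to 1.7), an interval that does not hold 1.

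Within a library, Adamts2 was 8.29 times Adamts14 in WT (7.54 to 9.12), 8.61 times in Dspp+/- (7.49 to 9.95) and 9.03 times in Dspp-/- (8.01 to 10.2). The 3 intervals overlap, and the ratio in Dspp+/- was 1.04 times that in WT. For Adamts2 to Adamts3, the ratio was 19.5 in WT (16.9 to 22.5), 15.4 in Dspp+/- (12.8 to 18.5) and 17.5 in Dspp-/- (14.9 to 20.6). In Dspp+/- it was thus 0.79 of that in WT. These intervals overlap too, but overlap of separate intervals does not show that a ratio is unchanged. No interval was computed for the change of either ratio between libraries. Such ratios within 1 library are the same under any scaling of the libraries.

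Adamts12 (ENSMUSG00000047497, chr15:11064876-11349317, plus strand) was 2.95 FPKM in WT (2.73 to 3.19), 1.31 in Dspp+/- (1.17 to 1.45) and 2.19 in Dspp-/- (2.01 to 2.38). The 3 intervals do not overlap, and Dspp+/- was lowest. Its FPKM was 0.442 of WT (0.387 to 0.505) in Dspp+/- and 0.741 of WT (0.66 to 0.832) in Dspp-/-.

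**Figure D2:**
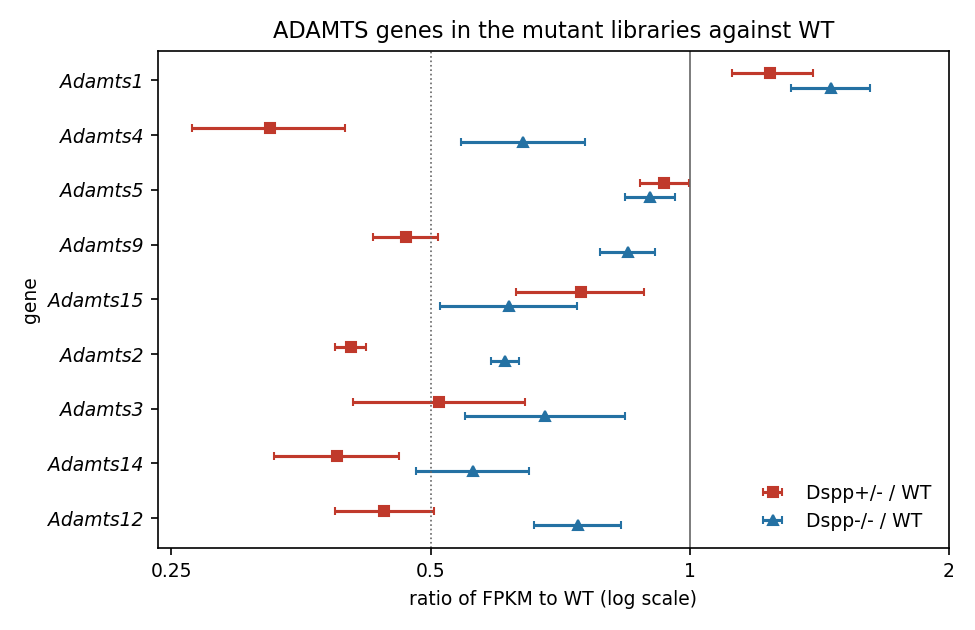
FPKM of each ADAMTS gene in Dspp+/- and in Dspp-/- as a ratio to WT, on a log axis with the solid line at 1 and the dotted line at 0.5. Bars are 95% Clopper-Pearson intervals from fragments and both ratios share the 1 WT library, and Adamts1 lies above 1 in both while Adamts4 reaches 0.325 in Dspp+/-.

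The members were counted against all genes by a fixed fold. All 9 averaged 1 FPKM or more across the libraries, as did 13026 genes of the table. On the log2(FPKM + 1) scale, which understates the difference of low genes, Adamts2 (-1.25) and Adamts4 (-1.08) were at least 2-fold lower in Dspp+/- than in WT, and Adamts14 at -0.99 was just outside. That is 2 of 9 members, where 2.86% of all genes compared were at least 2-fold lower. On FPKM with no pseudocount, 5 of 9 members were at least 2-fold lower in Dspp+/-, namely Adamts2, Adamts4, Adamts9, Adamts12 and Adamts14, against 4.94% of all genes. In Dspp-/- compared with WT, 0 of 9 were at least 2-fold lower on either scale, and 1.37% of all genes were on the log2(FPKM + 1) scale. No member was at least 2-fold higher in any comparison. The share of all genes that were was 4.88% for Dspp+/- over WT, 4.05% for Dspp-/- over WT and 0.852% for Dspp-/- over Dspp+/-. Lower at any size were 8 of 9 members in each mutant library, with Adamts5 in Dspp+/- dependent on the scaling, against 43.7% of all genes in Dspp+/- and 49.3% in Dspp-/-. Between the mutant libraries, 7 of 9 members were higher in Dspp-/- than in Dspp+/-, against 44.7% of all genes. The median log2 ratio of the 9 members was -0.78 in Dspp+/- and -0.34 in Dspp-/-. By role, it was -0.23 and -0.20 for the aggrecanase group and -0.99 and -0.64 for the procollagen N-proteinases. These counts describe single libraries and share WT.

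The make-up of the summed FPKM of the 9 genes differed between libraries. The 9 genes summed to 69.2 FPKM in WT against 37.6 in Dspp+/- and 50.7 in Dspp-/-. Adamts2 alone was 52.7% of that sum in WT against 39.2% in Dspp+/- and 43.9% in Dspp-/-, so it led in every library. The procollagen N-proteinases together gave 42.7, 17.4 and 26 FPKM in the same order, and the aggrecanase group 23.5, 18.9 and 22.5 FPKM. The aggrecanase group therefore made up 33.9% of the sum for WT, 50.2% for Dspp+/- and 44.4% for Dspp-/-. Inside this group, Adamts5 was 2.27 times Adamts4 in WT (2.02 to 2.55), 6.53 times in Dspp+/- (5.47 to 7.84) and 3.19 times in Dspp-/- (2.79 to 3.66). Adamts9 went from 0.903 of Adamts1 in WT (0.82 to 0.995) to 0.339 in Dspp+/- (0.308 to 0.374) and 0.525 in Dspp-/- (0.483 to 0.571). For both ratios the 3 intervals do not overlap.

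**Figure D3:**
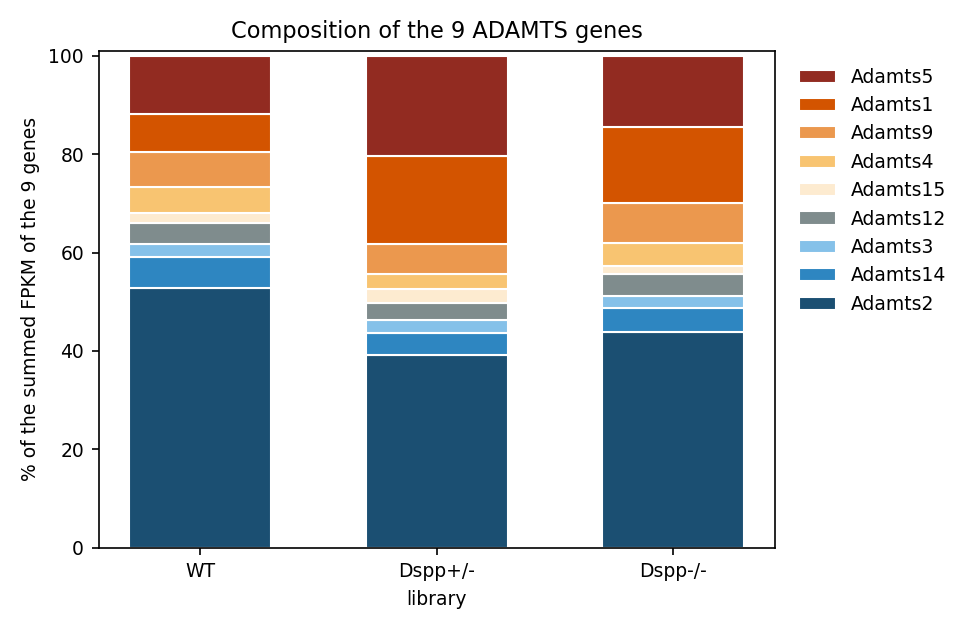
Share of each ADAMTS gene in the summed FPKM of the 9 genes, in percent, with 1 bar for each condyle library. Adamts2 makes up 52.7% in WT against 39.2% in Dspp+/- and 43.9% in Dspp-/-, and Adamts5 and Adamts1 together take a larger part of the bar in both mutant libraries than in WT.

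The 3 substrate genes averaging 1 FPKM or more were also lower in the mutant libraries. Acan, the aggrecan gene, was 84.1 FPKM in WT against 20.4 in Dspp+/- and 40.4 in Dspp-/-, which is 0.242 of WT (0.233 to 0.251) and 0.481 of WT (0.467 to 0.496). Vcan, the versican gene, was 8.63, 3.84 and 5.89 FPKM, and Comp was 462, 312 and 227 FPKM. On the log2(FPKM + 1) scale, Acan was at least 2-fold lower in both comparisons and Comp in Dspp-/-, so 1 of 3 substrate genes averaging 1 FPKM or more passed in Dspp+/- and 2 of 3 in Dspp-/-. Of all genes compared, 2.86% passed in Dspp+/- and 1.37% in Dspp-/-. Bcan and Ncan of the same list had a mean under 1 FPKM. At that low level, Bcan was 1.2, 0.0938 and 0.332 FPKM, on 99, 9 and 30 fragments. Ncan had 1, 3 and 0 fragments. Set against aggrecan, Adamts5 was 9.73 FPKM per 100 FPKM of Acan in WT (9.26 to 10.2), 37.6 in Dspp+/- (35.5 to 39.7) and 18.2 in Dspp-/- (17.3 to 19.2). Adamts1 was 6.43 per 100 in WT (5.91 to 6.99), 33 in Dspp+/- (30.6 to 35.6) and 19.5 in Dspp-/- (18.1 to 20.8). Both were thus higher per aggrecan transcript in the mutant libraries. Adamts4 was also higher per aggrecan transcript there but differed less, with 4.29 per 100 in WT (3.85 to 4.77), 5.75 in Dspp+/- (4.8 to 6.84) and 5.71 in Dspp-/- (5.01 to 6.48). For Adamts9 the values were 5.8 (5.5 to 6.12), 11.2 (10.4 to 12.1) and 10.2 (9.63 to 10.8). For both Adamts4 and Adamts9, the intervals of the mutant libraries lie above that of WT. Adamts12 per 100 FPKM of Comp was 0.64 in WT (0.591 to 0.691), 0.419 in Dspp+/- (0.375 to 0.467) and 0.965 in Dspp-/- (0.884 to 1.05), lowest in Dspp+/- and highest in Dspp-/-.

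The 4 procollagen genes cut by the N-proteinases were all lower in both mutant libraries. All 4 were at least 2-fold lower in Dspp+/- and 1 of 4, Col2a1, in Dspp-/-, on the log2(FPKM + 1) scale, with median log2 ratios of -1.97 and -0.89. Of all genes compared, 2.86% were at least 2-fold lower in Dspp+/- and 1.37% in Dspp-/- on that scale. Col1a1, of type I collagen in bone and fibrocartilage, was 6675 FPKM in WT against 1719 in Dspp+/- and 3610 in Dspp-/-. Col1a2, the other type I chain, was 2780, 700 and 1496 FPKM, and Col3a1, of type III collagen, was 576, 185 and 372 FPKM. Col2a1, of type II collagen in cartilage, was 761, 94.2 and 308 FPKM. Per 100 FPKM of Col1a1, Adamts2 was 0.546 FPKM in WT (0.533 to 0.559), 0.858 in Dspp+/- (0.828 to 0.888) and 0.617 in Dspp-/- (0.599 to 0.635). Adamts14 per 100 FPKM of Col1a1 was 0.0659 in WT (0.0601 to 0.0722), 0.0996 in Dspp+/- (0.0866 to 0.114) and 0.0683 in Dspp-/- (0.0606 to 0.0767), where WT and Dspp-/- overlap. Adamts3 per 100 FPKM of Col2a1 was 0.246 (0.214 to 0.282), 1.02 (0.845 to 1.22) and 0.413 (0.351 to 0.484). The enzyme genes were thus lower by less than the collagen genes they serve in Dspp+/-.

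**Figure D4:**
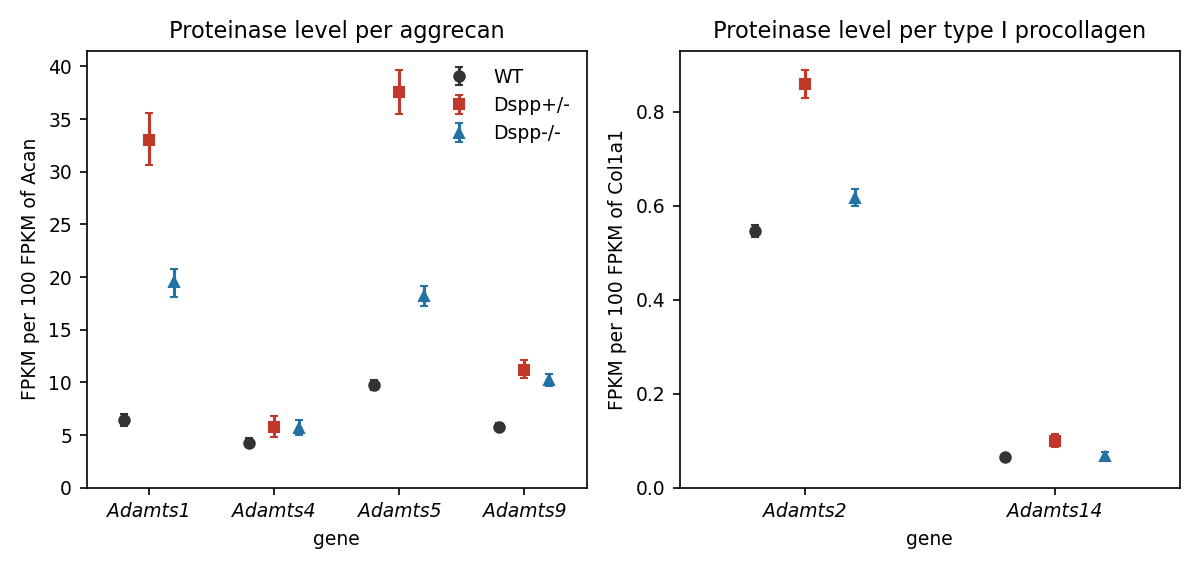
Left, FPKM of Adamts1, Adamts4, Adamts5 and Adamts9 per 100 FPKM of Acan in each condyle library, and right, FPKM of Adamts2 and Adamts14 per 100 FPKM of Col1a1. Bars are 95% Clopper-Pearson intervals from fragments, and Dspp+/- is highest for Adamts1 (33) and Adamts5 (37.6). Adamts4 is 4.29 in WT against 5.75 in Dspp+/- and 5.71 in Dspp-/-.

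Other genes of procollagen processing were lower as well. Bmp1, which encodes the proteinase that removes the carboxy-terminal propeptide, was 45.7 FPKM in WT against 14.2 in Dspp+/- and 22.3 in Dspp-/-. Pcolce, which encodes an enhancer of that step, was 106, 35.7 and 51.6 FPKM, and its relative Pcolce2 was 6.04, 3.24 and 4.19 FPKM. Of these 3 genes, Bmp1 and Pcolce were at least 2-fold lower in both mutant libraries, on the log2(FPKM + 1) scale and in FPKM. On the log2 scale, 2.86% of all genes compared were so in Dspp+/- and 1.37% in Dspp-/-. Tll1, Tll2, Mep1a and Mep1b of the same list had a mean under 1 FPKM. Adamts2 was at 0.798 of Bmp1 in WT (0.773 to 0.824), 1.04 in Dspp+/- (0.988 to 1.09) and 0.999 in Dspp-/- (0.959 to 1.04), so the intervals of the 2 mutant libraries overlap and lie above that of WT.

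Genes that inhibit, clear or activate ADAMTS proteinases went both ways. Of 10 such genes averaging 1 FPKM or more, 8 were lower in Dspp+/- and 7 in Dspp-/-, with medians of -0.55 and -0.43. Over all genes compared, 43.7% were lower in Dspp+/- and 49.3% in Dspp-/-. Timp4, an inhibitor gene named after its values were seen, was 7.98 FPKM in WT against 9.46 in Dspp+/- and 9.48 in Dspp-/-. Timp1, a metalloproteinase inhibitor gene, was 57.4 FPKM in WT against 19.6 in Dspp+/- and 33.6 in Dspp-/-, and Pcsk6, a convertase gene, was 40.1, 18 and 21.3 FPKM. These 2 were the genes of the list at least 2-fold lower in Dspp+/-, and 0 of the 10 were in Dspp-/-, all on the log2(FPKM + 1) scale. Of all genes compared, 2.86% were in Dspp+/- and 1.37% in Dspp-/-. A2m, the gene of the protease inhibitor alpha-2-macroglobulin, was named after its values were seen. It was 1.34 FPKM in WT and 1.37 in Dspp+/- but 3.42 in Dspp-/-, which is 2.54 times WT (2.15 to 3.02) in FPKM and 0.91 on that log2 scale. Fn1, the fibronectin gene, was 528, 450 and 400 FPKM, Timp2 was 375, 192 and 267 FPKM, and Sdc4, a syndecan gene, was 78, 41.9 and 40.1 FPKM. Timp3, which encodes the main tissue inhibitor of aggrecanases and was singled out after its values were seen, was 47.2, 32.9 and 52.1 FPKM. Adamts4 per 100 FPKM of Timp3 was 7.63 in WT (6.84 to 8.49), 3.56 in Dspp+/- (2.98 to 4.23) and 4.43 in Dspp-/- (3.89 to 5.03), lower in both mutant libraries. Adamts5 per 100 FPKM of Timp3 was 17.3 (16.4 to 18.2), 23.3 (22.1 to 24.5) and 14.1 (13.4 to 14.9), so it was highest in Dspp+/- and lowest in Dspp-/-. Pofut2 and B3glct, whose enzymes add the sugars that thrombospondin repeats need for secretion, were 12, 6.47 and 6.96 FPKM and 3.44, 2.59 and 3.32 FPKM. Vegfc, the gene of a growth factor that ADAMTS3 activates, was 4.2, 3.89 and 3.27 FPKM. Ccbe1, of the cofactor for that step, and Reln, of reelin, another ADAMTS3 substrate, had a mean under 1 FPKM. At that low level, Reln was 0.225, 0.699 and 0.596 FPKM, which is 3.11 times WT (2.51 to 3.89) in Dspp+/- and 2.65 times WT (2.13 to 3.33) in Dspp-/-.

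Of 10 further ADAMTS genes in the table, 5 averaged 1 FPKM or more, and 0 of them were 2-fold apart in a comparison on the log2(FPKM + 1) scale. On FPKM with no pseudocount, Adamts18 was at 0.473 of WT (0.42 to 0.532) and Adamts7 at 0.442 of WT (0.36 to 0.541) in Dspp+/-. Their median log2 ratio was -0.70 in Dspp+/-, with 4 of 5 lower, and -0.22 in Dspp-/-, with 5 of 5 lower. Adamts10, of the microfibril-binding branch, was 13.8 FPKM in WT against 7.43 in Dspp+/- and 8.29 in Dspp-/-, above every member except Adamts2 in WT. Adamts18 was 3.91, 1.85 and 2.86 FPKM and Adamts6 was 3.24, 1.94 and 2.69 FPKM. Of 6 ADAMTS-like genes, whose products have no proteinase domain, 3 averaged 1 FPKM or more. In Dspp+/- these 3 were higher than WT, with a median of 0.29, where 56.3% of all genes compared were higher. The 3 genes under that level were lower in Dspp+/-, with Adamtsl2 at 0.406 of WT (0.308 to 0.532), Adamtsl1 at 0.786 (0.633 to 0.976) and Papln at 0.967 (0.64 to 1.46), where the last interval holds 1. Adamtsl5 was 8.78, 14.8 and 9.67 FPKM, Adamtsl4 was 10.6, 13.2 and 9.39 FPKM, and Adamtsl3 was 1.03, 1.41 and 1.23 FPKM.

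**Figure D5:**
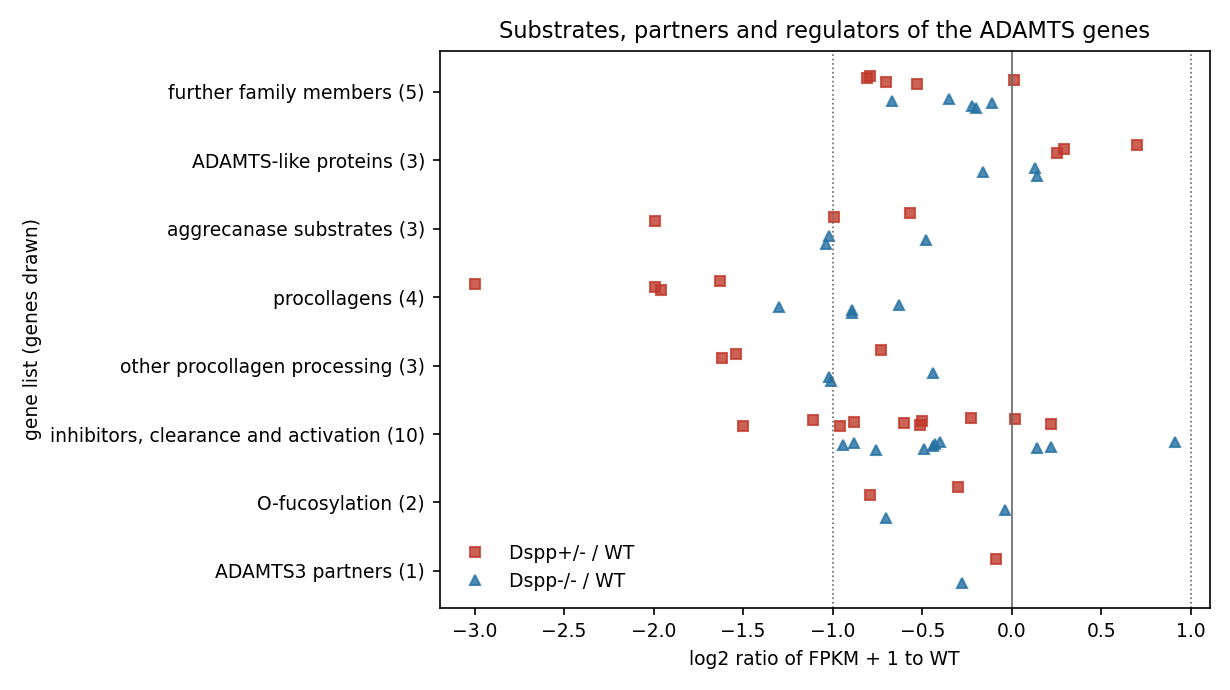
log2 ratio of FPKM + 1 to WT for each gene averaging 1 FPKM or more in the lists related to the ADAMTS members, with 1 row for each list, the number of genes drawn in brackets and dotted lines at 2-fold. Squares are Dspp+/- and triangles Dspp-/-, both against the same WT library, and all 4 procollagen genes lie beyond the lower line in Dspp+/- while the 3 ADAMTS-like genes drawn lie above 0 there.

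Marker genes of the cell types of the condyle were summed beside the members. The 8 chondrocyte markers summed to 1459 FPKM in WT against 468 in Dspp+/- and 672 in Dspp-/-, and all 8 were lower in both mutant libraries. The 6 osteoblast markers summed to 9958, 2641 and 5219 FPKM with all 6 lower. The 7 fibroblast and tendon markers summed to 2071, 1266 and 1560 FPKM, with 7 of 7 lower in Dspp+/- and 6 of 7 in Dspp-/-. In Dspp-/- against Dspp+/-, 7 of 8 chondrocyte, 6 of 6 osteoblast and only 4 of 7 fibroblast and tendon markers were higher. Adamts2, Adamts14, Adamts3, Adamts12 and Adamts9 had the same order of libraries as the sums of these lists, with WT highest and Dspp+/- lowest, and so did Adamts4. The 5 osteoclast markers, all lower in both mutant libraries, had this order too, with sums of 2191, 772 and 1265 FPKM. Adamts1, Adamts5 and Adamts15 did not follow that order. The 6 endothelial markers summed to 131, 147 and 143 FPKM, with 4 of 6 higher in Dspp+/- and 5 of 6 in Dspp-/-. The 6 smooth muscle and pericyte markers summed to 254, 286 and 287 FPKM but were mixed, with 4 of 6 higher in Dspp+/- and 3 of 6 in Dspp-/-, and Rgs5 (152, 195 and 201 FPKM) was most of the sum. Hematopoietic markers were above WT in both mutant libraries, with sums of 417, 1899 and 2592 FPKM for 6 neutrophil genes, 829, 3494 and 3336 for 5 erythroid genes and 315, 897 and 758 for 5 B cell genes. The 6 skeletal muscle markers summed to 9119, 12366 and 10573 FPKM, the 6 macrophage markers to 170, 142 and 143, and the 4 adipocyte markers to 30.9, 15.8 and 80.1. These lists were mixed in Dspp+/-, where 4 of 6 muscle, 3 of 6 macrophage and 2 of 4 adipocyte markers were higher than in WT. In Dspp-/-, 4 of 6, 2 of 6 and 4 of 4 were higher. No marker was at or under 3 fragments in any library. The part of these marker shifts in the levels of the ADAMTS genes was not tested.

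The genes with the pattern most like Adamts2 and Adamts5 were sought among those with a mean of at least 10 FPKM, by the distance in the plane of the 2 log2 ratios to WT, over 3 libraries. Nearest to Adamts2 were Maged2 (distance 0.0246), with 16.9 FPKM in WT against 6.52 in Dspp+/- and 9.91 in Dspp-/-, then Sh3pxd2b (0.0418), with 30.2, 11.8 and 18.1 FPKM, and Fam102a (0.0561), with 23, 9.47 and 13.8 FPKM. Sh3pxd2b encodes a scaffold protein of podosomes. Within a distance of 0.1 lay 11 of 4038 genes for Adamts2 and 149 of 4039 for Adamts5. Nearest to Adamts5 were Vcp-rs (0.00411) and Arl2bp (0.0083), whose levels, like that of Adamts5, differed little between libraries. With 3 libraries, such likeness rests on 2 ratios that share WT.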

How the data were processed

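Condylar RNA of WT, Dspp+/- and Dspp-/- mice was sequenced from poly(A) libraries. The authors deposited 1 table with 1 value per gene and genotype. Its unit is not named there, and the deposited values were read as FPKM because FPKM times merged exon length (GENCODE M21) gave whole fragments, within 0.02 of a fragment, in all 3 libraries for 98.1% of 26652 genes and for all 9 members. The submitters' processing notes name FastQC 0.11.5, HISAT2 2.1.0, StringTie 1.3.3b, DESeq 1.28.0 and the human build hg38. Positions are those of the table, are not GRCm38, and their build is not given in the sources used here.

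Depth was the step per fragment inverted (20241576, 23613622 and 22253159 fragments), tested on simulated data. A fragment in 1 kb was worth 0.0494, 0.0423 and 0.0449 FPKM. Folds are ratios of FPKM with 95% Clopper-Pearson intervals, and levels have exact Poisson intervals. Counts used log2(FPKM + 1) ratios past 1 in size at a mean of at least 1 FPKM. The Kruskal–Wallis test of the study cannot be run on 1 library per genotype. Members, lists and the rule for naming genes were chosen with earlier results of these data known. All members are named, and of each related list the genes at least 2-fold apart and up to 3 most abundant in WT. Timp3, Timp4, A2m, Adamts7, Adamtsl1, Adamtsl2, Papln, Reln, Bcan, Ncan and Rgs5 fall outside this rule and were named after their values were seen. Scripts ran in Python 3.11.15 with scipy 1.17.1, pandas 2.3.3 and numpy 2.4.6, and matplotlib 3.10.9 drew the figures. Dspp was not analysed here, and 2 results on other genes are not reported here.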

Additional observations from a re-analysis of the deposited data

Results flagged for a closer look

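Among the genes related to the ADAMTS members, Adamtsl4 and Timp3 lay on opposite sides of WT in the 2 mutant libraries, with counting intervals that do not hold 1. Adamtsl4, which encodes a microfibril-binding ADAMTS-like protein, was 1.24 times WT (1.14 to 1.35) in Dspp+/- and 0.882 of WT (0.803 to 0.969) in Dspp-/-. Timp3 was 0.696 of WT (0.673 to 0.719) in Dspp+/- and 1.1 times WT (1.07 to 1.14) in Dspp-/-. Over the scalings tried, the ratios stayed between 1.18 and 1.34 and between 0.865 and 0.946 for Adamtsl4, and between 0.663 and 0.752 and between 1.08 and 1.18 for Timp3. Each value is that of 1 library, both ratios share WT, and the difference between the mutant genotypes was not tested.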

How the results depend on the processing

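With 1 library per genotype, no library could be left out and no paired analysis was possible because each genotype has 1 sample. The number of members at least 2-fold lower in Dspp+/- (2) was 5 at a pseudocount of 0.1, 1 at a pseudocount of 5, 5 with no pseudocount (chosen after seeing the data), 1 at a mean of at least 5 FPKM, 5 at 1.5-fold and 0 at 4-fold. At 1.5-fold, 2 members were lower in Dspp-/- than in WT and 2 higher in Dspp-/- than in Dspp+/-, against 0 and 0. The median of the members in Dspp+/- (-0.78) was -1.06 at a pseudocount of 0.1, -0.33 at 5, -1.10 with none and -0.09 at a mean of at least 5 FPKM. That filter kept only Adamts1, Adamts2 and Adamts5 (means of 6.66, 24.5 and 7.73 FPKM). Its member count and median cover these genes alone, and the median is the value of Adamts5. Over all genes, 373 were lower in Dspp+/-, and 605, 156, 643, 1166 and 24 at pseudocounts of 0.1, 5 and none and at 1.5-fold and 4-fold. In Dspp-/-, 179 were lower, and 363, 45, 399, 1070 and 6 at those settings, and 110 at a mean of at least 5 FPKM. Between the mutant libraries, 111 were higher in Dspp-/-, and 223, 36, 242, 441 and 15 at those settings, with 172 without a filter and 57 at a mean of at least 5 FPKM. A larger pseudocount shrinks low genes by construction. The 4 scalings moved no count by over 1.5 times, and Adamts5 in Dspp+/- was the 1 member whose sign turned. The lowest genes, Adamts3 and Adamts15, rest on 123 to 206 and 200 to 295 fragments.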
